A study of Rattus norvegicus with 48 samples.

Results

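Nuclear genes of respiratory complex I were followed in rat lung through exposure to inhaled oil vapor. They were taken by name. Of 49 rows whose symbol begins with Nduf, among the 30045 genes of the count tables, 45 had a mean of at least 1 CPM (counts per M, or mega, of the library total) over the 48 libraries and were kept. The 4 rows below that limit were Ndufa1 at 0.0277 CPM, Ndufs6 at 0.0467, Ndufb1-2 at 0.104 and the pseudogene Ndufv3-ps1 at 0.734. The nearest rows above it were Ndufaf6 at 3.78 and Ndufaf2 at 4.48 CPM. Ndufa13 and Ndufaf8 were not analysed here. All 45 kept genes also passed the low-count filter of every test. Each library was the lung of 1 male Sprague-Dawley rat of 200 to 250 g at the start, and all animals spent their exposure in whole-body inhalation chambers. Rats breathed filtered air or oil vapor at 300 ppm for 6 h, either on 1 day (single exposure) or on 4 days a week for 4 weeks (repeated exposure, 16 days). Tissue was collected 1 or 28 days later, which gave 8 groups of 6 animals, numbered as in the labels. The air animals of each schedule and time were the controls of that oil vapor group. A piece of lung was used, so fewer cells of a type and less RNA per cell cannot be told apart.

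Complex I is the entry point of electrons from NADH into the mitochondrial respiratory chain, and it pumps protons across the inner membrane as it passes those electrons to ubiquinone. Its matrix arm holds the flavin and the iron-sulfur clusters, while its membrane arm holds the proton pumps, whose central subunits are encoded by mitochondrial DNA. The nuclear Nduf genes supply the remaining core subunits of the matrix arm, a larger set of accessory subunits in both arms, and assembly factors that are not part of the finished enzyme. The kept genes comprised 7 core subunits, 8 accessory subunits of the matrix arm, 20 accessory subunits of the membrane arm and 7 assembly factors. Ndufa4 and Ndufa4l2 were set apart, since Ndufa4 is now known as a complex IV component. Ndufa1-2 was given no role.

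A promoter sequence from RefSeq, on the rat assembly GRCr8, was matched to 39 of the 45 genes. Each ran from 250 bases before to 50 bases after the annotated start. Motifs were searched on both strands. The motif AANATGGCG, bound by the factor YY1, is shown because it was found most often among the genes: 9 of 39 promoters held it (23.1%), against 3.3% of all 27457 promoters and 6.0% of those of genes tested here. In 8 of the 9 the match lay 5 to 27 bases after the start on the sense strand, a placement found in 20.5% of these promoters, in 1.3% of all promoters and in 2.8% of those of genes tested. Windows of 30 bases around 5 such matches, with the motif in capitals, lie on the minus strand at chr7:115750283-115750312 (Ndufa6), chr4:161374141-161374170 (Ndufa9), chr1:253362896-253362925 (Ndufb8), chr2:47794891-47794920 (Ndufs4) and chr7:10110475-10110504 (Ndufs7). Not shown are Ndufa2, with the same letters, Ndufa7 with AATATGGCG and Ndufc1 with AACATGGCG. The matches lie in the first transcribed bases of each gene. The motif contains the letters ATGGCG, and whether these matches hold the start of the coding sequence was not examined.
Ndufa6: cttccttagcAAGATGGCGgccgcggccag
Ndufa9: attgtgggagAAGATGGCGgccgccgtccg
Ndufb8: ggagaaggtgAAGATGGCGgcgtcccgggc
Ndufs4: tgcccacaggAAGATGGCGgcggtctcaat
Ndufs7: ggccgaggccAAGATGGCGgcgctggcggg

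The motif of NRF1, a factor known for driving nuclear genes of the respiratory chain, was searched as the palindrome that stands in capitals in the sequence of Ndufaf4 and, more loosely, with its base after GCGCA left free, which includes the first. The full palindrome stood in 3 promoters (7.7%, against 0.9% of all promoters and 1.8% of those of genes tested), and the looser form in 8 (20.5%, against 4.7% and 9.2%). The 3 genes with the palindrome are shown, with the match in capitals, on the plus strand at chr9:1637510-1637539 (Ndufa11, where 2 matches overlap), chr5:43401627-43401656 (Ndufaf4) and chr3:147961587-147961616 (Ndufaf5), all upstream of the start. The ETS motif CCGGAAG, bound by GABPA, stood in 6 promoters (15.4%), against 9.2% of all promoters and 16.1% of those of genes tested. A match is a description of the letters, not evidence of binding.
Ndufa11: gcgctgtGCGCATGCGCATGCGCacaggcc
Ndufaf4: gcagtagtccGCGCATGCGCccctgtggaa
Ndufaf5: agtccctttgGCGCATGCGCacaatagaaa

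Library totals ranged from 1.54 M counts in animal 43 to 7.16 M, with 3.6 M the lowest of the other 47, and a floor of 3 counts corresponded to 0.419 to 1.95 CPM. The kept genes together took 0.100% to 0.152% of a library's counts. Markers of alveolar type 2 cells, which make surfactant, were detected in every group, with summed levels of 15020 to 32460 CPM, as were markers of alveolar type 1 cells at 2947 to 5487 CPM. In the repeated oil vapor group at 1 day, animals 43 and 44 stood apart from the other 4 in the complex I genes themselves, and the main values of that group are given with and without them. Levels below are CPM scaled by TMM (a size factor that makes libraries comparable) and not divided by transcript length, so they are compared between animals and not between genes. Tests are edgeR quasi-likelihood tests with p adjusted by the Benjamini-Hochberg method over all genes tested, and a gene is called at an adjusted p below 0.05. Log2 fold changes are given with a standard error (SE).

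Across the 8 groups the complex I genes held a nearly level course. Leaving aside Ndufa1-2, the ratio of a gene's highest to its lowest group mean had a median of 1.23 over 44 genes and ranged from 1.12 to 1.65. The SD between animals of a group had a median of 0.19 on the log2 scale over the 45 genes, against 0.23 for 9775 genes in the same range of mean counts. The smallest SDs were 0.10 for Ndufa10, a membrane-arm subunit at the joint of the arms, and 0.11 for the core subunit Ndufv2. The mean log2 level over the 44 genes had group means from 4.55 to 4.71. The mean of the group with animals 43 and 44 was 4.58 ± 0.19 (SD, n = 6) with them, 4.54 ± 0.19 (n = 5) without animal 43 and 4.63 ± 0.03 (n = 4) without both. The highest mean, 4.71 ± 0.07, was that of air animals 28 days after the repeated schedule, the group in which 18 of 45 genes had their highest group mean. No test was made over the list.

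**Figure D1:**
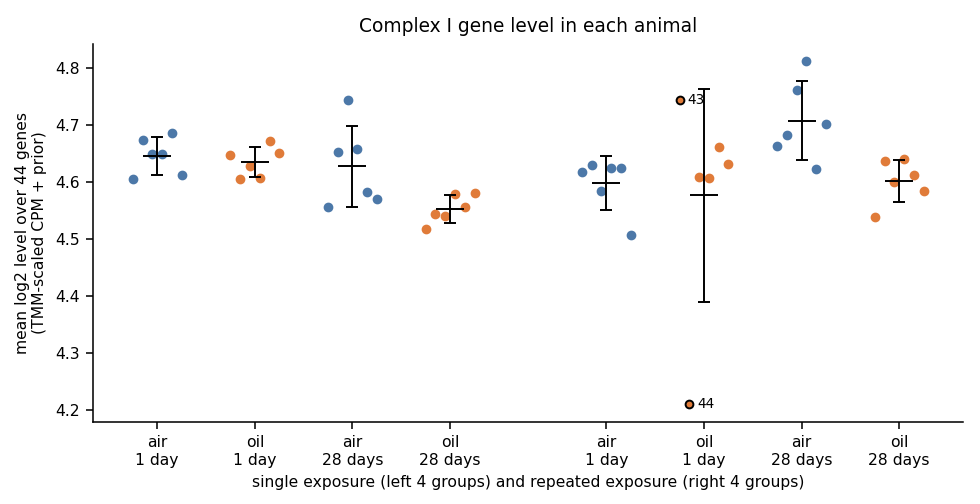
Mean log2 level over 44 complex I genes (all kept genes but Ndufa1-2) in each of 48 animals (points; blue air, orange oil vapor), with the mean and SD of each group as bars; the vertical axis does not start at 0. Animal 44 sits at 4.21, below all others, and animal 43 at 4.74.

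One day after a single exposure, complex I genes differed little between oil vapor and air. Of the 45 genes 23 were lower and 22 higher in oil vapor, with a median log2 difference of -0.0025, against 46.7% lower, 53.3% higher and a median of 0.01 among all 14820 genes tested. None was called (0 of all genes, 0%, were), and 3 of 45 had an unadjusted p below 0.05 against 10.1% of all genes. DESeq2 and limma-voom also called none of the 45, and called 19 and 1 of all genes. No gene had groups that did not overlap, against 0.682% of all genes. In 38 of 44 genes (without Ndufa1-2) the 95% interval of the difference lay within 0.5 log2 units of 0. The core subunits, which carry the flavin and the iron-sulfur clusters, ran from -0.17 for Ndufs7 (SE 0.08) to 0.07 for Ndufv1 (SE 0.08), with Ndufs1 at -0.12, Ndufs3 at 0.03, Ndufs8 at 0.05 and Ndufv2 at 0.0017. Among accessory subunits of the matrix arm the ends were Ndufa12 at 0.24 (SE 0.24) and Ndufa9 at -0.36 (SE 0.10). In the membrane arm they were Ndufb11 at 0.11 (SE 0.11) and Ndufb6 at -0.27 (SE 0.13), and among assembly factors Ndufaf6 at 0.39 (SE 0.22) and Ndufaf5 at -0.26 (SE 0.16). Ndufa4 stood at -0.11 (SE 0.07) and Ndufa4l2 at 0.01 (SE 0.16).

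The smallest p in this comparison belonged to Ndufa9, an accessory subunit near the junction of the arms that binds a nucleotide cofactor. Its level was 31.2 CPM at the lowest, 37.1 at the median and 40.5 at the highest in air, and 25.5, 28.3 and 32.3 CPM in oil vapor. The 2 groups overlapped by a narrow margin, and the difference of -0.36 was not called (adjusted p = 0.25). Ndufb6 followed with an adjusted p of 0.474 and Ndufs7 with 0.485.

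At 28 days after the single exposure, 35 of the 45 genes had lower and 10 had higher values in oil vapor, with a median of -0.05 against 0.01 for all 14820 genes, of which 47.5% were lower and 52.5% higher. Again none was called by edgeR (0 of all genes, 0%), DESeq2 (24 of all genes) or limma-voom (0 of all genes). In edgeR 6 of 45 had an unadjusted p below 0.05 against 8.21% of all genes. The interval lay within 0.5 log2 units of 0 in 37 of 44 genes. Core subunits ran from 0.03 for Ndufs8 (SE 0.11) to -0.23 for Ndufv2 (SE 0.07), with Ndufs1 at -0.15, Ndufs3 at -0.03, Ndufs7 at -0.06 and Ndufv1 at -0.13. The ends were Ndufa12 at 0.29 (SE 0.25) and Ndufa9 at -0.42 (SE 0.10) in the matrix arm, and Ndufb1 at 0.13 (SE 0.08) and Ndufb7 at -0.45 (SE 0.14) in the membrane arm. Among assembly factors they were Ndufaf5 at 0.03 (SE 0.16) and Ndufaf2 at -0.34 (SE 0.22). Ndufa4 stood at -0.07 and Ndufa4l2 at -0.14.

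Ndufa9 again had the smallest p. It reached 31.6, 38.6 and 43.7 CPM in air (lowest, median and highest animal) and 23.5, 27.1 and 35.0 CPM in oil vapor. Of the 6 oil vapor animals only animal 27 lay above the lowest air animal, and the difference did not pass (adjusted p = 0.247). Ndufv2, a core subunit with an iron-sulfur cluster beside the flavin, was the 1 gene of 45 whose groups did not overlap (0.810% of all genes): 54.2, 60.6 and 67.1 CPM in air against 47.3, 52.0 and 54.2 in oil vapor, where the highest oil animal lay just under the lowest air animal. Its adjusted p was 0.318. Ndufb7 spanned 17.2 to 26.5 CPM in air and 11.7 to 21.9 in oil vapor, with an adjusted p of 0.392.

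One day after the repeated schedule, 25 genes were lower and 20 higher, with a median of -0.03, against 45.3% lower, 54.7% higher and a median of 0.02 among 15005 genes tested. No complex I gene was called, as against 0.00666% of all genes, and 4 of 45 had an unadjusted p below 0.05 (9.29% of all genes). No gene had groups that did not overlap, against 0.540% of all genes. The interval lay within 0.5 log2 units in 34 of 44 genes. Core subunits ran from 0.01 for Ndufs1 (SE 0.11) to -0.29 for Ndufs3 (SE 0.12), with Ndufs7 at -0.10, Ndufs8 at -0.11, Ndufv1 at -0.06 and Ndufv2 at -0.01. The ends were Ndufa12 at 0.24 (SE 0.19) and Ndufs4 at -0.08 (SE 0.09) in the matrix arm. In the membrane arm they were Ndufa3 at 0.30 (SE 0.19) and Ndufb6 at -0.43 (SE 0.09), and among assembly factors Ndufaf2 at 0.21 (SE 0.24) and Ndufaf6 at -0.15 (SE 0.19). Ndufa4 stood at -0.19 (SE 0.08, adjusted p = 0.473) and Ndufa4l2 at 0.14 (SE 0.20). Without animals 43 and 44 the sign turned in 4 core subunits, with Ndufs8 at 0.12 (SE 0.13), Ndufv1 at 0.03 (SE 0.09), Ndufv2 at 0.05 (SE 0.06) and Ndufs1 at -0.03 (SE 0.07), while Ndufs3 stood at -0.25 (SE 0.12) and Ndufs7 at -0.08 (SE 0.10). The ends then were Ndufa12 at 0.22 and Ndufs4 at -0.14 in the matrix arm, Ndufa3 at 0.36 and Ndufb6 at -0.47 in the membrane arm, and Ndufaf2 at 0.12 and Ndufaf6 at -0.18 among assembly factors. Ndufa4 was at -0.24 (SE 0.08) and Ndufa4l2 at 0.23 (SE 0.19).

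Ndufb6, a small accessory subunit of the membrane arm, came nearest to a call. Its level in air was 17.9, 21.5 and 22.4 CPM (lowest, median and highest), and in oil vapor it was 19.2 CPM in animal 43, 14.7 in animal 44 and 15.7, 14.3, 15 and 15 in the other 4. Every oil animal but 43 lay below every air animal. The difference of -0.43 had an adjusted p of 0.160 in edgeR, and 0.0190 in DESeq2 and 0.0189 in limma-voom with sample weights, which weighs down libraries that stand apart. DESeq2 called 90 of all genes and limma-voom 93, against 1 in edgeR. Without animal 43, edgeR gave -0.47 with an adjusted p of 0.0276, the 1 complex I gene then called, among 32 of all genes. Without animals 43 and 44 it gave -0.47 with 0.0299, where 86 of all 15207 genes tested were called. Over the set, the balance of lower and higher values turned on animals 43 and 44. Lower values were seen in 31 of 45 genes without animal 43 (median -0.06), in 16 without animal 44 (median 0.05) and in 24 without both (median -0.0007). The 250 bases before the start of Ndufb6 (chr5:60206153-60206402, minus strand, GRCr8) are shown because this gene stood out from its arm. They held no match to any of the motifs, so no letter is in capitals.
Ndufb6: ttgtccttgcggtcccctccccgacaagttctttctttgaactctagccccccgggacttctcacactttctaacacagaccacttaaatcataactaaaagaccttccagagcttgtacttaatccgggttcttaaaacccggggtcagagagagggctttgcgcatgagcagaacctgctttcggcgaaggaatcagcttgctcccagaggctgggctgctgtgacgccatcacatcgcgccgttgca

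At 28 days after the repeated schedule, 40 of 45 genes had lower and 5 higher values in oil vapor, with a median of -0.13, against 47.5% lower, 52.5% higher and a median of 0.01 among 15005 genes. The count was also 40 without animals 43 and 44, which are in neither of the groups compared, so little change could arise. With the summed level of cardiac markers as a covariate, described below, it was 17 (median 0.06). Leaving aside Ndufa1-2, the estimates lay between -0.31 and 0.35. None of the 45 genes was called by edgeR (0 of all genes, 0%), DESeq2 (21 of all genes) or limma-voom (0 of all genes). In edgeR 4 had an unadjusted p below 0.05 (4.86% of all genes), and 37 of 44 intervals lay within 0.5 log2 units of 0. The 6 core subunits described were on the lower side, from -0.06 for Ndufs3 (SE 0.12) to -0.19 for Ndufv2 (SE 0.07), with Ndufs1 at -0.12, Ndufs7 at -0.08, Ndufs8 at -0.18 and Ndufv1 at -0.19. So were 7 of 8 accessory subunits of the matrix arm, between -0.22 for Ndufa2 (SE 0.12) and 0.07 for Ndufv3 (SE 0.09). In the membrane arm 18 of 20 were lower, between -0.27 for Ndufb11 (SE 0.17) and 0.17 for Ndufb6 (SE 0.09). Of the assembly factors 6 of 7 were lower, with a median of -0.02, from -0.31 for Ndufaf2 (SE 0.23) to 0.15 for Ndufaf1 (SE 0.13). Ndufa4 stood at -0.10 (SE 0.08) and Ndufa4l2, which is known as a hypoxia-induced relative of Ndufa4, at 0.35 (SE 0.19).

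The smallest p values were those of Ndufa10 (-0.20, SE 0.06, adjusted p = 0.611), Ndufv2 (-0.19, adjusted p = 0.825) and Ndufc2 (-0.18, SE 0.09, adjusted p = 0.980). Ndufa10 reached 53.4, 59.2 and 61.3 CPM in air (lowest, median and highest) and 42.0, 51.0 and 55.3 CPM in oil vapor. Ndufv2 reached 58.1, 65.5 and 69.7 CPM in air and 53.6, 56.5 and 58.8 CPM in oil vapor. In both genes the groups overlapped only at their edges. The 1 gene without overlap was Ndufb3 (0.886% of all genes), a membrane-arm subunit, at 26.8 to 32.4 CPM in air and 23.7 to 26.4 in oil vapor, with an adjusted p of 0.980. Reads of Ndufa10 and its near copy Ndufa10l1 may have been split, so both are uncertain.

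Transcripts of heart muscle also mostly lay lower in oil vapor at 28 days, while their direction at 1 day differed between the schedules. The summed level of 13 cardiac markers, which in lung can come from the muscle of the pulmonary veins or from attached heart, ran from 195 to 1578 CPM (median 421) in air animals and from 34.3 to 309 CPM (median 96.0) in oil vapor animals 28 days after the repeated schedule, where Nppa was at 0 in all 6 oil animals. All 12 tested markers were lower in oil vapor there, with a median of -2.86, and none was called. After the single schedule at 28 days the sums ran from 96.0 to 1539 CPM in air and 28.0 to 639 in oil vapor, and 10 of 12 markers were lower. At 1 day, where the complex I genes were near evenly split, 12 of 12 were lower after the single (median -1.24) and 10 of 12 higher after the repeated schedule (median 0.31), or 7 of 12 without animals 43 and 44 (median 0.06). Over the 48 animals, as deviations from group means, the mean level of the 44 genes and the log2 summed cardiac level had a Pearson r of 0.55, and 0.51 in the 46 animals without 43 and 44, as a description. For 8 skeletal muscle markers the r was 0.575 and 0.646, and for 7 alveolar type 1 markers -0.48 and -0.14. With the summed cardiac level as a covariate, 17 of 45 genes were lower 28 days after the repeated schedule, with a median of 0.06, in place of 40 and -0.13. After the single schedule at 28 days 26 were lower in place of 35, with a median of -0.02. Other lists lay lower at 28 days after the repeated schedule too: 23 of 24 ribosomal protein genes (median -0.16), 11 of 11 erythroid markers (median -1.72; summed 2229 to 3770 CPM in oil vapor and 3741 to 8606 in air) and 7 of 7 tested liver markers (median -3.10; 145 to 175 CPM and 162 to 1264), while 9 of 9 alveolar type 2 markers were higher (median 0.12), none of them called. After the single schedule at 28 days 17 of 24 ribosomal protein genes (median -0.06), 11 of 11 erythroid (median -1.97) and 7 of 7 liver markers (median -3.44) were lower, with none called. The part of these lists in the complex I values was not tested.

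**Figure D2:**
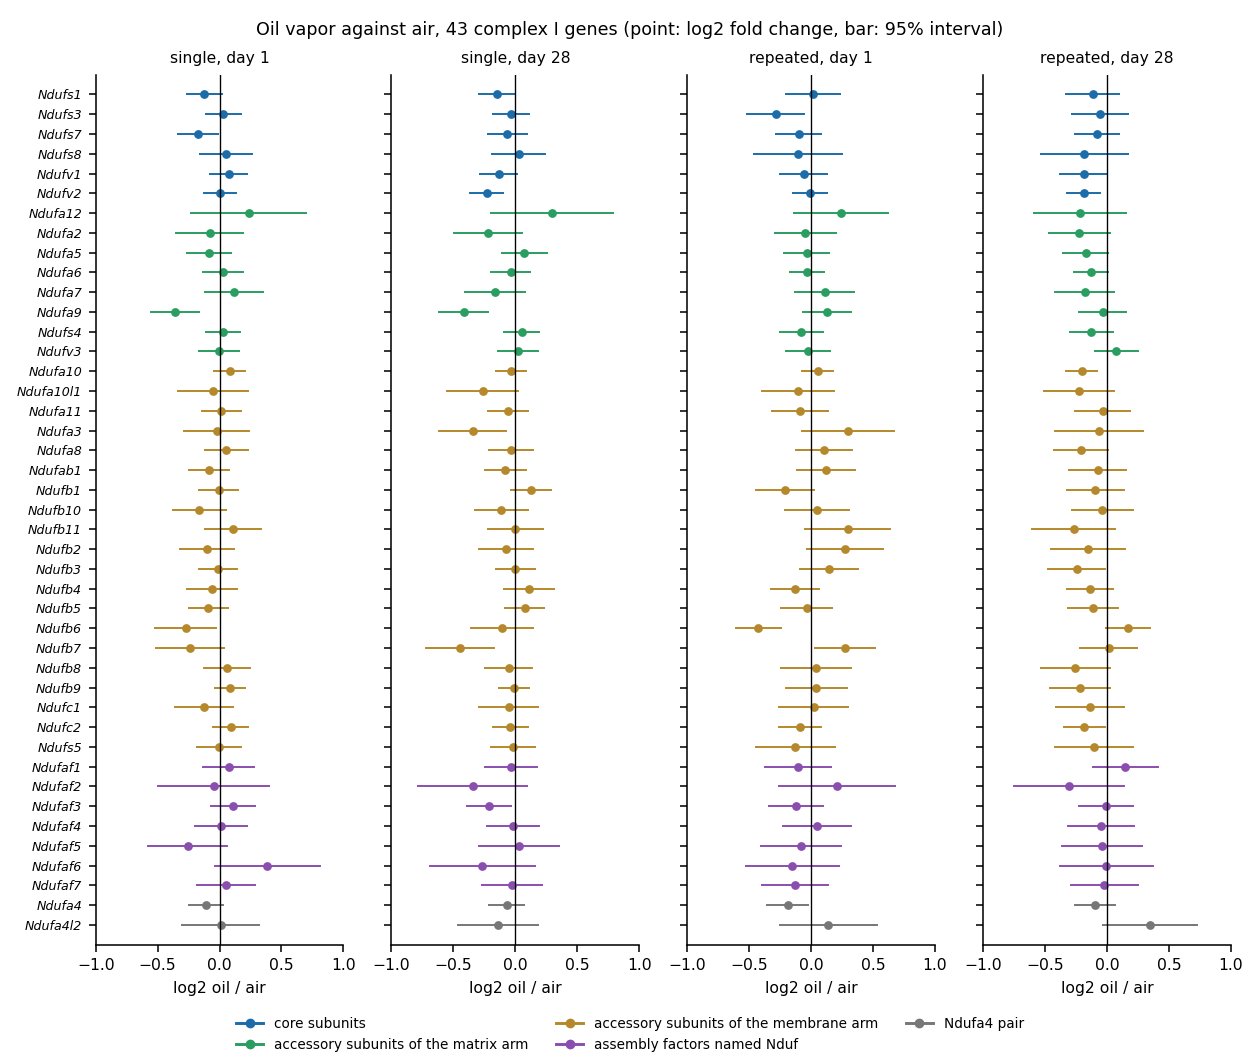
Log2 difference between oil vapor and air for 43 complex I genes (Ndufa1-2 and 1 core subunit are not drawn), in 4 panels for both schedules and times; points are edgeR estimates, bars 95% intervals, colors roles. Most points lie near 0, and in the panel of the repeated schedule at 28 days nearly all lie to its left, with Ndufa4l2 at 0.35 and Ndufb6 at 0.17 to its right.

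Between the air groups, time after the repeated schedule was the 1 contrast with a called complex I gene. The air animals at 28 days had higher values than those at 1 day in 35 of 45 genes, with a median of 0.08, against 49.5% higher, 50.5% lower and a median of -0.0019 among all genes. Beside them, values were higher at 28 days in 10 of 12 cardiac (median 0.99), 7 of 7 liver (2.24), 10 of 11 erythroid (0.38) and 4 of 4 neutrophil and marrow markers (0.61), none called, and their part was not tested. With the cardiac covariate 30 of 45 complex I genes were higher (median 0.05). Ndufb7, an accessory subunit that faces the intermembrane space, rose by 0.58 (SE 0.12, adjusted p = 0.0336), and it was the 1 of 45 called, against 0.327% of all 15005 genes. Its level was 13, 13.3 and 15.5 CPM at 1 day (lowest, median and highest) and 14.1, 22 and 23.8 CPM at 28 days. Only animal 83, at 14.1 CPM, lay inside the range of the earlier group. The call was lost when any of 9 animals of these groups was left out (34, 36, 37, 38, 39, 82, 86, 87 and 88), with adjusted p between 0.0516 and 0.108 and log2 values between 0.54 and 0.60. In those fits 2 to 34 of all genes were called, against 49 in the main fit. With the cardiac covariate the value was 0.52 (adjusted p = 0.0508). Its promoter (chr19:41477292-41477541, minus strand, GRCr8) is shown because it belongs to the gene that was called, with the ETS motif, which begins 16 bases before the start, in capitals.
Ndufb7: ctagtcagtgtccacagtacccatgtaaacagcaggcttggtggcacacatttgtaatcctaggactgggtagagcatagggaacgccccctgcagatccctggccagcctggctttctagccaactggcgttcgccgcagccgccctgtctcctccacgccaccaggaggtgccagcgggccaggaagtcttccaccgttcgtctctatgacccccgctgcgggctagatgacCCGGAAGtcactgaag

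Next came Ndufa8 (0.43, SE 0.11, adjusted p = 0.119) and Ndufb10 (0.46, SE 0.13, adjusted p = 0.138), also of the membrane arm. Ndufa8 spanned 28.3 to 34.7 CPM at 1 day and 36.3 to 50.1 CPM at 28 days, without overlap. Ndufb9 and Ndufv2 did not overlap either, which made 3 of 45 genes against 1.61% of all genes. DESeq2 called Ndufa8, Ndufb7 and Ndufb10, among 191 of all genes. With limma-voom these 3 and Ndufb6 were called, among 244 of all genes. Ndufb6 went the other way, from 17.9 to 22.4 CPM at 1 day to 12.5 to 18.9 at 28 days. Without animals 43 and 44, which are in neither of the groups compared, edgeR called 6: Ndufa8, Ndufa9, Ndufb7, Ndufb9, Ndufb10 and Ndufv2. All genes called in that fit numbered 357 of 15207, against 49 of 15005 in the main fit. These air groups are also the controls of the oil vapor comparisons, so the high air values at 28 days and the lower oil values against them are not separate observations. Of the other respiratory chain genes, 0 of 5 of complex II, 0 of 15 of complex III, 1 of 24 of complex IV and 1 of 17 of complex V were called in the same contrast, against 0.327% of all genes. They were Cox17, a copper chaperone of complex IV (0.43, SE 0.09, adjusted p = 0.0303), and Atp5d, a subunit of ATP synthase (0.48, SE 0.11, adjusted p = 0.0461). Both were higher at 28 days, and whether these calls hold when animals are left out was not examined.

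After the single schedule, air animals at 28 days against 1 day gave 27 of 45 lower and 18 higher, with a median of -0.03, near the 49.2% lower and 50.8% higher among all genes. None was called, although 3.25% of all 14820 genes were, and 4 had an unadjusted p below 0.05 against 15.5%. No gene had groups that did not overlap, against 2.24% of all genes. The smallest p values were those of Ndufaf3 (0.22, SE 0.09, adjusted p = 0.216), Ndufa4 (-0.17, SE 0.07, adjusted p = 0.255) and Ndufa11 (-0.18, SE 0.08, adjusted p = 0.265). Without air animal 19, Ndufa4 was called (-0.24, adjusted p = 0.0344), among 368 of all genes.

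**Figure D3:**
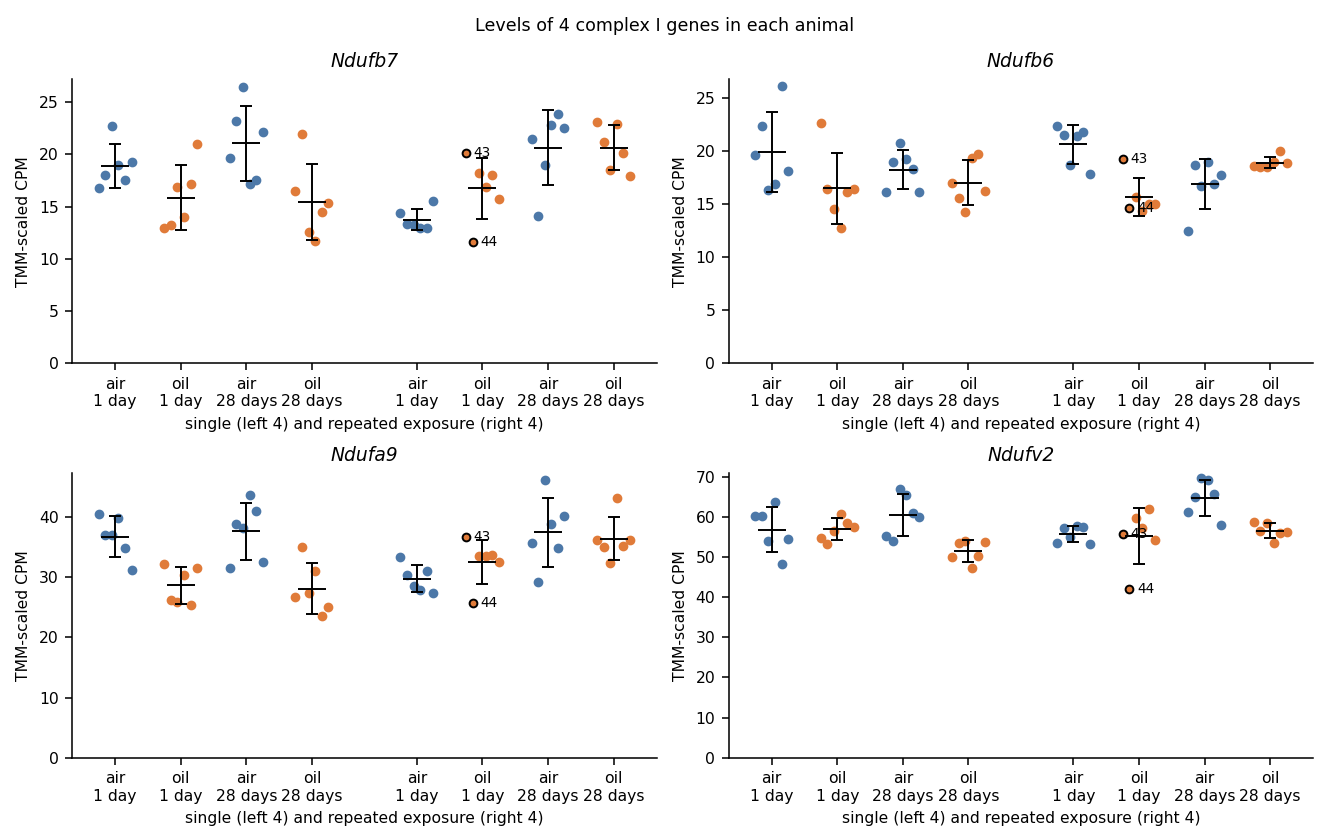
TMM-scaled CPM of Ndufb7, Ndufb6, Ndufa9 and Ndufv2 in each animal (points; blue air, orange oil vapor) with group means and SDs as bars; each vertical axis starts at 0 and animals 43 and 44 are marked. Ndufb7 is lowest in air 1 day after the repeated schedule, and Ndufa9 after the single schedule has a median of 37.1 and 38.6 CPM in air and 28.3 and 27.1 in oil vapor, a difference that did not pass the test.

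Whether the oil vapor difference itself differed between times or schedules was tested as an interaction, and no complex I gene passed in any of the 4. The share of all genes called was 0% and 0.00666% for time within the single and the repeated schedule, and 0.0457% and 0% for schedule at 1 and 28 days. Unadjusted p was below 0.05 in 3, 4, 3 and 2 of the 45 genes, against 7.83%, 7.80%, 9.74% and 5.20% of all genes. The interaction was negative in 28 and 31 of 45 genes for time (49.9% and 50.7% of all genes) and in 24 and 27 for schedule, where it was positive in 21 and 18 (54.3% and 49.7% of all genes, and 50.3% negative at 28 days). With the cardiac covariate the interaction with time in the repeated schedule was negative in 16 and positive in 29 genes, with a median of 0.06 in place of -0.10. Ndufb6 had the smallest p between times in the repeated schedule, where its difference from air changed from -0.43 at 1 day to 0.17 at 28 days (interaction 0.60, SE 0.13, adjusted p = 0.122). It was called there by DESeq2 (0.61, adjusted p = 0.0235), by limma-voom (0.67, 0.0441) and by edgeR without animals 43 and 44 (0.63, 0.0383). These fits called 47, 3 and 33 of all genes, in that order. Ndufa10 (-0.26, SE 0.09) and Ndufb3 (-0.39, SE 0.17) followed with adjusted p of 0.493 and 0.587. In the single schedule the smallest p values were those of Ndufv2 (-0.23), Ndufaf3 (-0.32) and Ndufaf6 (-0.65), with adjusted p of 0.568, 0.572 and 0.622. Between schedules at 1 day, Ndufa9 had a difference of -0.36 after the single and 0.13 after the repeated exposure (interaction 0.49, SE 0.14, adjusted p = 0.183), followed by Ndufb7 (0.52, SE 0.19, adjusted p = 0.324) and Ndufs3 (-0.32, SE 0.14, adjusted p = 0.415). At 28 days the same interaction was 0.38 for Ndufa9, 0.46 for Ndufb7 and -0.17 for Ndufa10, with adjusted p of 0.922, 0.922 and 0.945.

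The other genes of the pathway were taken from lists of the remaining respiratory complexes and their regulators. In the 4 oil vapor comparisons none of them was called. At 28 days after the repeated schedule, 4 of 5 genes of complex II were lower, 12 of 15 of complex III, 16 of 24 of complex IV and 15 of 17 of complex V (ATP synthase), with medians of -0.13, -0.05, -0.10 and -0.16. Those of smallest p were Sdhc (-0.32), Uqcrc1 (-0.22), Cox17 (-0.19) and Atp5c1 (-0.22). After the single schedule at 28 days the corresponding counts were 4, 8, 19 and 15. At 1 day the medians of the 4 lists lay between -0.02 and 0.07 after the single and between -0.05 and 0.10 after the repeated schedule (-0.06 and -0.01 without animals 43 and 44). Complex I assembly genes without an Nduf name, such as Ecsit and Timmdc1, were lower in 8 of 10 at 28 days after the repeated schedule (median -0.04). Of 11 tested regulators, among them Nrf1, Gabpa and Yy1, 8 were lower there (median -0.05), and the smallest adjusted p in any oil vapor comparison was 0.325, for Yy1 1 day after the single exposure (0.20, SE 0.06). As deviations from group means over the 48 animals, the mean level of the complex I genes had a Pearson r of 0.72 with that of complex II, 0.68 with complex III, 0.60 with complex IV and 0.70 with complex V, and 0.05 with the regulators. Without animals 43 and 44 these were 0.65, 0.57, 0.28, 0.45 and 0.05. The points share library and depth.

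Within the set, pairs of genes moved together weakly across animals. The median Pearson r over the 990 pairs, on deviations from group means in 48 animals, was 0.15, and 73.1% of pairs were positive, against 0.01 and 51.0% among 9775 genes in the same range of mean counts. Without animals 43 and 44 the median was 0.06. Core subunits kept the highest median, 0.35 with and 0.25 without those animals, and the membrane arm went from 0.24 to 0.07. The core subunits Ndufs8 and Ndufv1 had an r of 0.70 (0.62 without the 2 animals), and Ndufb6 and Ndufa11 an r of 0.68 (0.66). Ndufb9 and Ndufs1, with the highest r of all pairs at 0.77, had 0.42 without them. Ndufa4l2 ran against Ndufaf4 (-0.69, and -0.53 without the 2 animals) and Ndufs1 (-0.52, and -0.35).

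Animal 44, given repeated oil vapor and taken at 1 day, had the lowest mean level of the 48 animals, at 4.21 where the others lay between 4.51 and 4.81. It was lowest of all 48 in 20 of the 45 genes. Set against the other 4 animals of its group (43 aside), 35 genes lay below all 4 and 0 above, with a median of -0.37, against 34% below, 28.5% above and a median of -0.02 over all 15005 genes. The lower values were spread over the arms, with medians of -0.46 in core subunits, -0.32 in the matrix arm, -0.53 in the membrane arm and -0.25 in assembly factors. The core subunit Ndufs8 was at 8.30 CPM against 20.2 to 23.1 in the other 4, Ndufa3 at 8.86 against 19.6 to 21.4, Ndufs5 at 12.2 against 21.7 to 28.4 and Ndufb11 at 15.2 against 29.1 to 33.8. The same animal was lower in 22 of 26 ribosomal protein genes (median -0.30), 9 of 9 alveolar type 2 markers (-0.72), 10 of 13 cardiac markers (-2.43) and 13 of 18 genes of complex V (-0.37), each counted as below all 4. Their part in the complex I values was not tested.

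Animal 43, the shallowest library, split the set instead. Against the same 4 animals 25 genes lay above all 4 and 12 below, with a median of 0.17, where all genes gave 35.4% above and 46.9% below. This position depends on the scaling. With TMM the mean log2 level over the 45 genes was 4.66 in animal 43, against 4.53 to 4.62 in the other 4. With RLE, another size factor, it was 4.74 against 4.52 to 4.61, but by library totals 4.24 against 4.55 to 4.63. The kept genes took 0.116% of its counts, against 0.133% to 0.138% in the other 4. On the TMM scale the membrane arm lay higher, with a median of 0.37 and 14 of 20 above all 4, while core subunits were divided. Ndufb11 was at 59.4 CPM against 29.1 to 33.8, Ndufb3 at 48.9 against 23.8 to 27.3, Ndufb8 at 75.1 against 35.4 to 46.7 and Ndufs1 at 109 against 68.1 to 74.1. On the other side, Ndufs8 was at 9.60 CPM (11 counts) against 20.2 to 23.1, and Ndufa4l2 at 2.62 CPM (3 counts) against 6.49 to 8.49. Ndufs8 was thus low in both animals. In animal 43 all 11 erythroid markers lay above the other 4 (median 5.99), as did 25 of 26 ribosomal protein genes (1.14) and 11 of 13 cardiac markers (2.12), and their part was not tested.

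**Figure D4:**
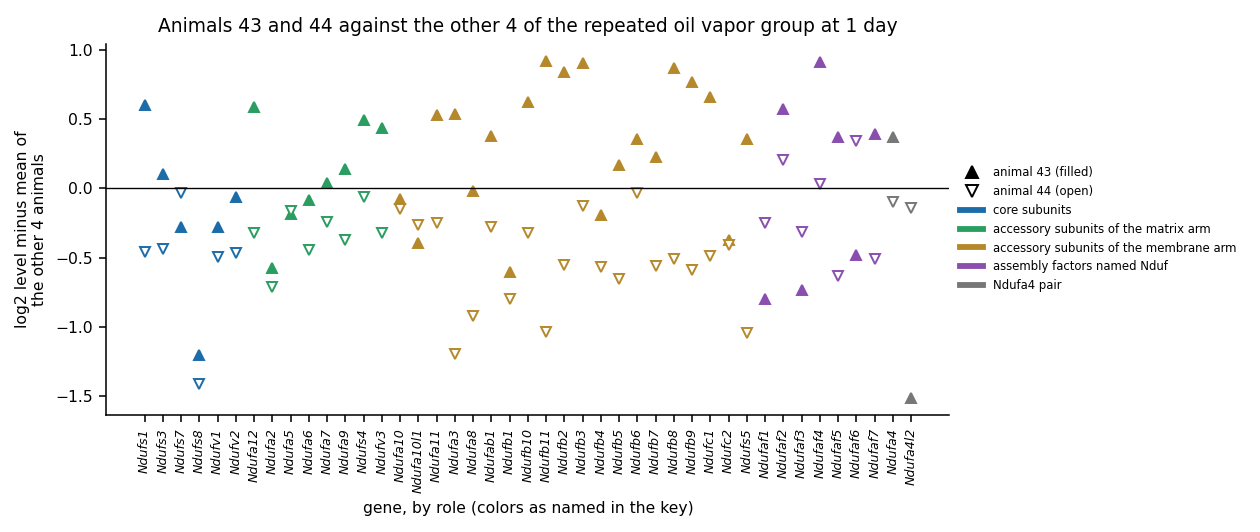
Log2 level of 43 complex I genes in animal 43 (filled triangles) and animal 44 (open triangles) minus the mean of the other 4 animals given repeated oil vapor and taken at 1 day, by role (color). Animal 44 lies below 0 for most genes, and animal 43 lies above 0 for most of the membrane arm and below it for Ndufs8 and Ndufa4l2.

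Ndufa1-2 varied more than any other gene of the set. The symbol is not a current RefSeq symbol, and what it stands for is not given in the sources used here. By name it is close to Ndufa1, whose own row held at most 1 count in any library and a count in 7 of the 48. The levels of Ndufa1-2 fell into 3 separate ranges, whose limits of 2 and 17 CPM were set after the values were seen. In 25 animals it was at 0 to 1.75 CPM (at most 3 counts), in 16 at 5.26 to 13.8 CPM (19 to 84 counts) and in 7 at 19.6 to 25.9 CPM (113 to 136 counts), with nothing between. The low and the middle range occurred in each of the 8 groups, and the high range in 6, all but oil vapor 1 day after the single and 28 days after the repeated schedule. Its SD within groups was 2.92 on the log2 scale, against 0.40 or less in each of the other 44 genes, which is why the mean level above leaves it out. The oil vapor differences were -1.49 (SE 1.09) and -0.76 (SE 1.09) after the single schedule at 1 and 28 days, and 0.02 (SE 0.99) and -0.31 (SE 1.03) after the repeated schedule, none called. Reads of Ndufa1 and Ndufa1-2 may have been assigned to either row, so both are uncertain.

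**Figure D5:**
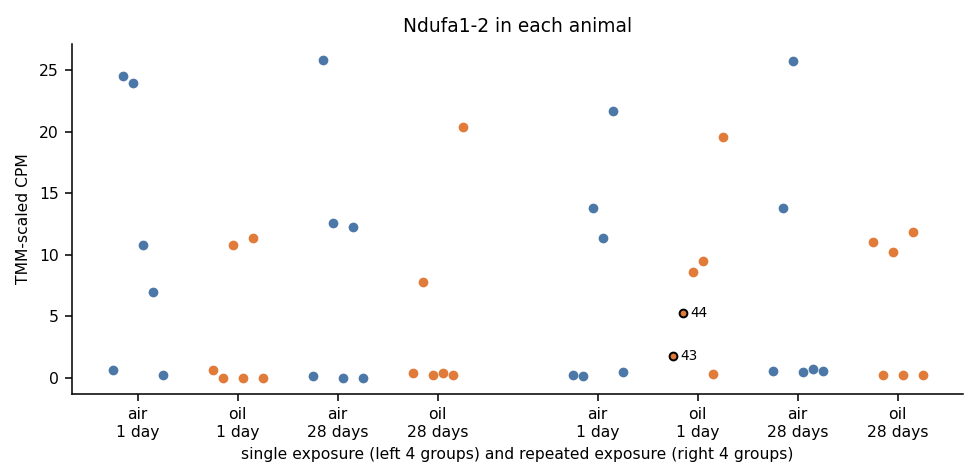
TMM-scaled CPM of Ndufa1-2 in each of the 48 animals (points; blue air, orange oil vapor), with no mean drawn. The points gather near 0, between 5.26 and 13.8 CPM and above 19.6 CPM, and the lower 2 of these ranges are found in every group.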

How the data were processed

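Lung RNA of 48 rats was sequenced, 1 library per animal. Per the labels' protocols, stranded libraries were made from 1 µg of total RNA after ribosomal RNA depletion, with 12 PCR cycles and no molecular identifiers stated. The submitters' processing notes name bcl2fastq 2.19, Trimmomatic 0.35, HISAT2 2.1.0, SAMtools 1.8, HTSeq 0.6.1 and the build Rnor_6.0, while the annotation and strand setting are not given in the sources used here. The authors deposited raw counts per gene symbol in 2 tables of 24 columns, 1 per schedule. Animal 32 was placed by its title and column, since its description names the other table.

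Each schedule's 24 libraries were fitted in edgeR 4.0.16 (R 4.3.3) with TMM and filterByExpr, and schedule interactions in all 48. The SE is the absolute log2 value over the square root of F. Levels used TMM over 48 libraries, and mean log2 levels a prior count of 0.5. Floors cover counting error only. All 120 library pairs within groups differed by more than sampling noise. The scripts were tested on simulated data. Other settings were RLE factors, no filter, DESeq2 1.42.0, limma-voom (limma 3.58.1), a minimum of 1.2-fold, other sets of libraries and leaving out each animal. The cardiac covariate and leaving out animals 43 and 44 together, or Ndufa1-2, were chosen after seeing the data.

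The genes, lists and role groups were chosen with earlier results of these data known. Named are the called genes or the 3 of smallest p per comparison, core subunits, Ndufa4 and Ndufa4l2, the ends of each role group, genes near the 1 CPM limit and genes with an outlying animal. 1 core subunit stays in the counts and fits but is not reported here. Ndufb3 in the repeated schedule at 28 days, Ndufb9 and Ndufv2 between air groups, the genes described in animals 43 and 44, and the gene pairs of the correlations were chosen after their values were seen.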

Additional observations from a re-analysis of the deposited data

Results flagged for a closer look

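In 360 groups of 6 (44 genes and the mean level, in 8 groups), 31 values lay so far from the other 5 animals that the gap exceeded Dixon's 95% limit, and chance gives about 1 in 20 groups. They fell in 22 genes and the mean level. No complex I gene passed a test of whether the oil vapor difference itself differed between times or schedules.

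Of the repeated oil vapor animals at 1 day, animal 43 accounted for 7 of them. It was highest in Ndufaf4 (30.6 CPM), Ndufb6 (19.2), Ndufb3 (48.9), Ndufb10 (46.3), Ndufa11 (48) and Ndufa4 (72.5), and lowest in Ndufa4l2 (2.62). Animal 44 was lowest in Ndufs3 (18.5 CPM), Ndufb5 (19.6), Ndufa6 (28.5), Ndufa8 (19.6) and the mean log2 level over the 45 genes (4.17).

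Among air animals 28 days after the single exposure, animal 19 was highest in Ndufb8 (46.5 CPM) and Ndufa4 (73.2), animal 18 was highest in Ndufs8 (26.0), and animals 17 and 20 were lowest in Ndufaf2 (3.58) and Ndufa4l2 (4.53). At 1 day, animals 4 and 9 were lowest in Ndufaf4 (14.2) and Ndufa10 (45.5). In single oil vapor at 1 day, animal 5 was highest in Ndufb6 (22.6 CPM), and animals 6 and 7 were lowest in Ndufa7 (22.5) and Ndufs7 (19.2), while at 28 days animal 27 was highest in Ndufa12 (10.6).

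Among repeated air animals at 1 day, animals 34 and 40 were lowest in Ndufc1 (11.7 CPM) and Ndufb8 (33.6). At 28 days animal 87 was lowest in Ndufaf4 (12.3) and Ndufb11 (25.2), animal 82 lowest in Ndufb6 (12.5) and animal 84 highest in Ndufv1 (76.7). In repeated oil vapor at 28 days, animals 94 and 93 were highest in Ndufb6 (20) and Ndufa9 (43.2).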

How the results depend on the processing

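No paired analysis was possible because each animal has its own number, which no other group shares. No gene that passed its test changed sign. With the cardiac covariate the median over the set turned from -0.13 to 0.06 for oil vapor 28 days after the repeated schedule and from -0.10 to 0.06 for the interaction with time in that schedule. Counts of called genes moved by over 1.5 times in 4 contrasts. For oil vapor against air 1 day after the repeated schedule, the count of 0 became 1 (Ndufb6) with DESeq2, with limma-voom and without animals 43 and 44, and 0 to 1 when each animal was left out in turn, the 1 being without animal 43. All genes called in these fits numbered 90, 93, 86 and 32, in that order, against 1 in the main fit. For time in repeated air, the count of 1 became 0 with a minimum of 1.2-fold or the cardiac covariate, 3 with DESeq2, 4 with limma-voom, 6 without animals 43 and 44, and 2 with all 48 libraries or only the 12 compared. All genes called numbered 49 in the main fit, and 1, 43, 191, 244, 357, 131 and 123 in these settings, in that order. Leaving out each animal gave 0 to 3, with 3 without animal 43 (215 of all genes) and 2 without animal 44 (78 of all genes). For the interaction of oil vapor and time in the repeated schedule, 0 became 1 with DESeq2, limma-voom and without animals 43 and 44. There 47, 3 and 33 of all genes were called, against 1 in the main fit. For time in single air, leaving out each animal gave 0 to 1, the 1 being without animal 19 (368 of all genes, against 481 in the main fit). The cause of these shifts was not tested. The oil vapor differences in the mean log2 level were -0.07, -0.08, 0 and -0.11 in order of schedule and time. They stayed within 1 SD of these values under the settings run for them, with no value given for the cardiac covariate. Group SDs of this mean ran from 0.05 to 0.18, so that limit was wide for differences of this size. The third difference ran from -0.03 to 0.07 over animals left out and was 0.05 without animals 43 and 44. Without Ndufa1-2 the differences were -0.01, -0.07, -0.02 and -0.11. The number of genes lower in oil vapor 1 day after the repeated schedule ran from 16 (without animal 44) to 31 (without animal 43). The number lower in oil vapor 28 days after the repeated schedule ran from 36 to 40 over animals left out, and from 17 (cardiac covariate) to 40 over other settings. The p-values measure spread between animals, and low mean counts per library (19.9 and 23) limit Ndufaf6 and Ndufaf2.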
